A study of Mus musculus with 5 samples.

Results

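The T and NK cell receptor and effector genes described here are 10 genes known from mature T lymphocytes and natural killer cells. Whether their RNA marks such cells in the sorted fraction studied here was not tested. They are Klrd1, Cd247, Cd3d, Cd3e, Cd3g, Lck, Nkg7, Gzma, Tcf7 and Il2rb. Members were the probe sets to which the platform annotation gives one of these symbols alone. By that rule 8 genes were measured, on 12 of 45037 probe sets, among 18193 genes with a probe set of their own. Lck and Tcf7 have no probe set listed under their symbols in the annotation used here and were not analysed here. RNA came from KLS cells, a fraction sorted as Sca-1+ and c-Kit+ without lineage antigens, which holds blood stem cells and multipotent progenitors, and was hybridised to Affymetrix mouse arrays. The 3 deficient arrays carried Rb -/-, p130 -/- and p107-/- cells. The 2 control arrays, titled wild type, carried cells with Rb +/+ and p130 +/+ that were p107+/-, so the controls had lost 1 copy of p107. In both groups recombination through Mx1Cre was induced in mice of 6 weeks, and cells were sorted 2 months later without other treatment. The genotype given for the controls, Rb +/+ and p130 +/+, names no loss of either gene. Mx1-Cre is switched on by interferon and acts in many cell types, so loss of the Rb family was not limited to stem cells. Whether an array holds 1 animal or several pooled is not stated in the labels. A p-value here therefore reflects the spread between arrays alone, which may be technical.

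T cells recognise antigen through a variable receptor that has no signalling tail of its own. It is held in a complex with the CD3 gamma, delta and epsilon chains and the zeta chain (Cd247), whose tails are phosphorylated by the kinase Lck. NK cells instead read many germline-encoded receptors, among them CD94 (Klrd1), and both cell types kill through granules that hold granzymes and the membrane protein Nkg7. Mature T and NK cells carry surface antigens that lineage antibodies commonly remove from a KLS sort. No source used here names the antibodies of the lineage mix. In RNA from many cells together, fewer cells of a type and less RNA per cell cannot be told apart.

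The values are intensities made by the authors with RMA, given here as log2, and the medians of the 5 arrays lay between 4.71 and 4.74. RMA compresses differences among dim probe sets, and levels of different probe sets are not set against each other. Of the targeted genes, Rbl1 (p107) read 8.33 and 7.16 in the controls and 5.15, 4.25 and 4.73 in the deficient arrays (difference -3.04, limma adjusted p = 0.0513), while the brightest probe sets of Rb1 (-0.36) and Rbl2 (p130; -0.46) gave overlapping groups. Where these probe sets lie relative to the deleted exons was not analysed here. Kit, a gene of the sort, and Cd34, a gene of multipotent progenitors, overlapped between the groups, with levels of 10.83 to 11.25 and 11.79 to 12.27. Over all probe sets, 0.326% were lower and 0.164% higher in deficient cells at an adjusted p under 0.05 (limma, Benjamini-Hochberg over 45037 probe sets), the threshold used throughout.

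The members did not move as a block. Klrd1 fell, Cd247 fell when each gene was represented by 1 probe set, Cd3g and Gzma were high on control 2 alone, and Nkg7 had higher values in every deficient array without passing the test. Among all probe sets, 1 of 12 member probe sets was lower and 11 did not pass (limma), against a background of 0.326% lower. With 1 probe set per gene, the brightest, 2 of 8 were lower and 6 did not pass (limma), where 1.41% of all genes were lower and 0.83% higher. At an unadjusted p under 0.05, 3 member probe sets were lower and 1 was higher, where 6.82% and 7.28% of all probe sets were. The deficient arrays lay below both controls on 6 of 12 probe sets and above both on 2, where 15.2% and 15.4% of all probe sets did so. Probe sets of the same gene are counted apart here. The 6 include dim Cd247 probe sets with small differences, and the 2 include a dim Il2rb probe set. The median difference, deficient minus control, was -1.23 over the 8 genes, each by its brightest probe set, and -0.01 over all genes. Over all 12 member probe sets it was -0.19. The median over the 8 genes rests on control 2, since it was -0.21 without that array, -1.58 without control 1 and between -1.26 and -1.14 without 1 deficient array.

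**Figure D1:**
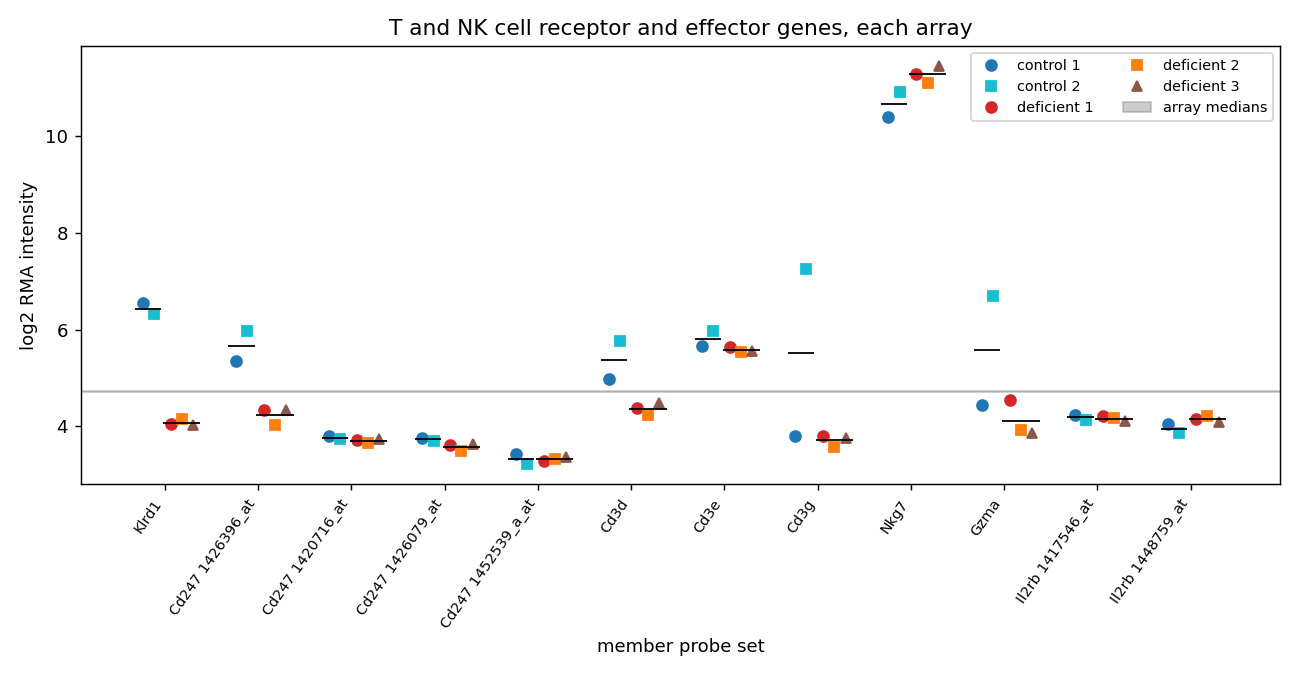
Log2 RMA intensity of the 12 member probe sets on each of the 5 arrays, with short lines at the group means and a grey band at the array medians. Klrd1 reads 6.54 and 6.33 in the controls and at most 4.15 in the deficient arrays, while Cd3g and Gzma stand out on control 2 alone.

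Klrd1 encodes CD94, a lectin-like chain that pairs with NKG2 proteins to read the non-classical MHC molecule Qa-1. Its probe set (1460245_at) read 6.54 and 6.33 in the control arrays and 4.04, 4.15 and 4.02 in the deficient arrays. Both controls lay above all 3 deficient arrays, and the deficient values were below the array medians. The means were 6.43 ± 0.15 (SD, n = 2) and 4.07 ± 0.07 (SD, n = 3), so Klrd1 fell by 2.36 on the log2 scale (SE 0.12, limma adjusted p = 0.00462). With any 1 array left out the difference stayed between -2.47 and -2.26, and the call held in all 5 such fits (adjusted p from 0.0215 to 0.0443).

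Klrd1 lies in the NK receptor cluster of chromosome 6, and none of the 4 measured genes on either side of it passed the threshold. In the order of RefSeq genes it stands between Klre1 and Klrk1, followed by Klrc3, Klrc2 and Klrc1, the last of which encodes the inhibitory partner NKG2A. Klrc1 read 3.47 and 3.38 in controls and 3.19, 3.60 and 3.47 in deficient arrays. Klrk1, which encodes the activating receptor NKG2D, read 3.90 and 4.20 against 3.74, 3.98 and 4.01. All of these values lay below the array medians and the groups overlapped for both genes. Klre1 differed by -0.23 (SE 0.11), and none of Klre1, Klrk1, Klrc3, Klrc2 and Klrc1 passed the threshold (limma, 1 probe set per gene, adjusted p of at least 0.339). On the other side of Klre1, the autophagy gene Gabarapl1 read 11.54 and 10.95 in controls and 10.05, 10.39 and 10.52 in deficient arrays, with groups that did not overlap (difference -0.93, SE 0.22, adjusted p = 0.0983). Ncr1, which encodes the NK cell receptor NKp46, read between 3.70 and 3.86 on all 5 arrays.

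Cd247 encodes the zeta chain, which carries most of the signalling motifs of the T cell receptor and also serves NK receptors such as CD16. Its brightest probe set (1426396_at) read 5.36 and 5.98 in controls and 4.34, 4.03 and 4.33 in deficient arrays. The groups did not overlap, with means of 5.67 ± 0.44 (SD, n = 2) and 4.24 ± 0.18 (SD, n = 3). The difference was -1.43 (SE 0.21), which passed with 1 probe set per gene (limma adjusted p = 0.0356) and missed the threshold over all probe sets (adjusted p = 0.0615). With 1 probe set per gene, the call held without control 1 (-1.74, adjusted p = 0.0462) and was lost without control 2 (-1.12, adjusted p = 0.0700) and without deficient 1, 2 or 3 (-1.49, -1.33 and -1.48). The gene's other 3 probe sets read between 3.21 and 3.79 on all arrays, with differences of -0.07, -0.15 and 0.01, so the fall rests on 1 of 4 probe sets. The mean of all 4 differed by -0.41 (adjusted p = 0.0940).

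The 3 CD3 genes sit side by side on chromosome 9 in the order Cd3g, Cd3d, Cd3e. Cd3g and Cd3d are read in opposite directions from starts 1355 bases apart in RefSeq's GRCm38.p6 annotation. Their promoters are shown because these 3 neighbours differed in how far control 2 stood above the next array (3.46 for Cd3g, 0.79 for Cd3d and 0.31 for Cd3e). None of the 3 passed the threshold with all 5 arrays. The promoter of Cd247 is shown as that of the partner chain that fell. Each window runs from 250 bases before to 50 after the gene's start, 5′ to 3′ on the gene's strand. Capitals mark 4 motifs, each searched on both strands. Sites of ETS factors were spelled AGGAAG, which is longer than their GGAA core, and the core alone was not searched. Sites of RUNX factors were spelled ACCACA. Those of the TCF and LEF factors, to which the product of Tcf7 belongs, were spelled CTTTGA. Sites of GATA factors were spelled AGATAA.
Cd3g promoter, chr9:44980382-44980681, minus strand: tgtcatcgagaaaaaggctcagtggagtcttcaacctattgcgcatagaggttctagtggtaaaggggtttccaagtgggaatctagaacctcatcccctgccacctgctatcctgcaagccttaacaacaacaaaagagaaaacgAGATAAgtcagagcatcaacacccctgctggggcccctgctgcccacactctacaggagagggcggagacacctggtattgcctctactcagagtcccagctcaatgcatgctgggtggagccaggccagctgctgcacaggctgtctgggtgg
Cd3d promoter, chr9:44981536-44981835, plus strand: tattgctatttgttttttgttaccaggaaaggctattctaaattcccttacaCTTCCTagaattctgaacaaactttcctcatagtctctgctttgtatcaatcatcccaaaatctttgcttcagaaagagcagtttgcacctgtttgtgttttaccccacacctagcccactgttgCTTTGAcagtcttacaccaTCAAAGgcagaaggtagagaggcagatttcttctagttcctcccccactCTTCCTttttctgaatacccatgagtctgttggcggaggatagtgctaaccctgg
Cd3e promoter, chr9:45009562-45009861, minus strand: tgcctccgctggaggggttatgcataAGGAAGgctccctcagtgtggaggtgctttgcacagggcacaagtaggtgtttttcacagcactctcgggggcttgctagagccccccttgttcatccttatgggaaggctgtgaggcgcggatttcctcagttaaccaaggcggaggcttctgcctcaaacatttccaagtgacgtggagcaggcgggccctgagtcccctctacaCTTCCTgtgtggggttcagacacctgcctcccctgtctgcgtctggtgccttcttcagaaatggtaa
Cd247 promoter, chr1:165788431-165788730, plus strand: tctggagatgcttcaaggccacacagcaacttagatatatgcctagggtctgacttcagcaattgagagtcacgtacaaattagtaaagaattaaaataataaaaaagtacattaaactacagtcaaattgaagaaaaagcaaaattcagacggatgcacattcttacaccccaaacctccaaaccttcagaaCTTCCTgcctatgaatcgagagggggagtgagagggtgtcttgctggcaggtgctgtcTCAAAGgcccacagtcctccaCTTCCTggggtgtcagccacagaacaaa

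The ETS spelling AGGAAG was found 2 times each in the Cd3d, Cd3e and Cd247 windows and was not found in that of Cd3g. This spelling is common, since 35.4% of all 32851 RefSeq promoter windows of the same length hold it. The shorter GGAA core, left unmarked here, does occur in the Cd3g window on both strands. The TCF and LEF letters were found 2 times for Cd3d and 1 time for Cd247 (5257 of all windows hold them). Cd3g had 1 GATA match (11.2% of windows). E2F sites spelled TTTCCCGC, TTTGGCGC, TTTCGCGC or TTTGCCGC were not found in any of the 6 member windows (2.26% of windows), which are those of Cd247, Cd3d, Cd3e, Cd3g, Nkg7 and Gzma. Such matches only describe letters in these windows.

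Cd3d encodes the delta chain, which pairs with epsilon in the receptor complex. It read 4.98 and 5.77 in controls and 4.38, 4.22 and 4.47 in deficient arrays, so the groups did not overlap and control 2 was the highest array. The means were 5.38 ± 0.56 (SD, n = 2) and 4.36 ± 0.13 (SD, n = 3). The difference of -1.02 (SE 0.24) missed the threshold (limma adjusted p = 0.142), with -1.41 when control 1 was dropped and -0.62 when control 2 was dropped.

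Cd3e encodes the epsilon chain, present in 2 copies in each complex and the target of the usual anti-CD3 antibody. It read 5.65 and 5.96 in controls and 5.64, 5.54 and 5.55 in deficient arrays. Control 1 lay 0.01 above the highest deficient array, and only control 2 stood clear of the others. The means were 5.81 ± 0.22 (SD, n = 2) and 5.58 ± 0.05 (SD, n = 3). The difference of -0.23 (SE 0.13) did not pass (limma adjusted p = 0.531).

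Cd3g encodes the gamma chain. It read 3.79 in control 1, 7.26 in control 2 and 3.79, 3.57 and 3.76 in deficient arrays. Control 2 stood 3.46 log2 units above the next array, and control 1 lay level with the highest deficient array. The means were 5.52 ± 2.45 (SD, n = 2) and 3.71 ± 0.12 (SD, n = 3). The difference of -1.82 (SE 0.92) therefore rests on 1 array and did not pass (limma adjusted p = 0.473). Without control 2 it was -0.08 (adjusted p = 0.914), and without control 1 it was -3.55 and passed (adjusted p = 0.0112). In that last fit a lone control is assumed to vary like the deficient arrays.

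Gzma encodes granzyme A, a serine protease of cytotoxic granules, and had the same single-array pattern. It read 4.45 in control 1, 6.70 in control 2 and 4.55, 3.92 and 3.85 in deficient arrays, with control 1 inside the deficient range. The means were 5.57 ± 1.59 (SD, n = 2) and 4.11 ± 0.38 (SD, n = 3). The difference of -1.47 (SE 0.64) did not pass (limma adjusted p = 0.391) and was -0.34 without control 2 and -2.59 without control 1. Its promoter is shown for comparison with that of Cd3g, the other member high on control 2 alone.
Gzma promoter, chr13:113100932-113101231, minus strand: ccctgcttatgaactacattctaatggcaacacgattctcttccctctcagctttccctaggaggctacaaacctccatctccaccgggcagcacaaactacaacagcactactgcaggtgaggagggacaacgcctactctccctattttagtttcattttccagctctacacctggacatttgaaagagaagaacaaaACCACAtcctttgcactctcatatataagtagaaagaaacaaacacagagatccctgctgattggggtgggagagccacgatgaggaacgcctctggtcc

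The window holds 1 RUNX match, marked in capitals (16.8% of all windows hold one), and none of the motifs found for Cd3g.

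Nkg7 encodes a granule membrane protein of NK and cytotoxic T cells and was the bright member that went the other way. Whether its RNA in this fraction came from such cells was not tested. Nkg7 read 10.41 and 10.91 in controls and 11.30, 11.11 and 11.46 in deficient arrays, so all 3 deficient arrays lay above both controls. The means were 10.66 ± 0.36 (SD, n = 2) and 11.29 ± 0.18 (SD, n = 3). The difference of 0.63 (SE 0.19) did not pass (limma adjusted p = 0.219). Dropping control 1 gave 0.38 and dropping control 2 gave 0.88.

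Il2rb encodes the beta chain shared by the IL-2 and IL-15 receptors, which NK cells need to survive. Its probe set 1417546_at read 4.24 and 4.13 in controls and 4.20, 4.17 and 4.10 in deficient arrays, and 1448759_at read 4.05 and 3.86 against 4.15, 4.22 and 4.08. All 10 values lay below the array medians. The differences of -0.02 (SE 0.10) and 0.20 (SE 0.12) did not pass (limma adjusted p = 0.960 and 0.542).

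**Figure D2:**
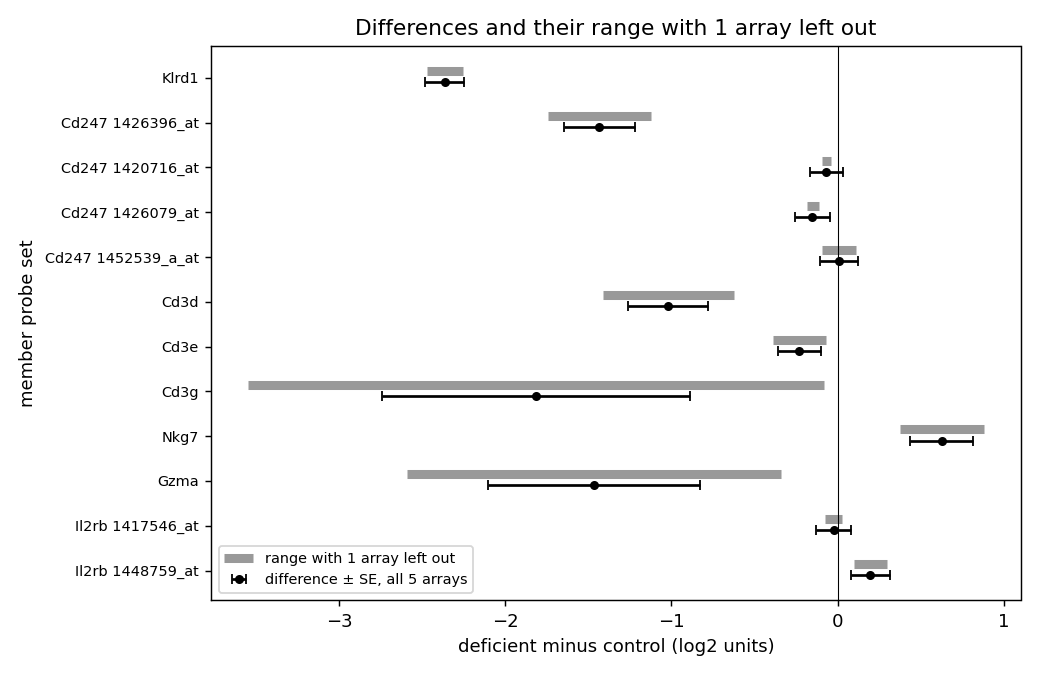
Deficient minus control on the log2 scale for each member probe set, with SE from limma on all 5 arrays, and as grey bars the range of the difference when 1 array is left out. Klrd1 keeps a narrow range of -2.47 to -2.26, while Cd3g runs from -3.55 to -0.08 and Gzma from -2.59 to -0.34.

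The signal on control 2 was then described across the array, with no test. A probe set was taken as high on 1 array where that array read at least 1 log2 unit above the highest of the other 4. By this measure 2 of 12 member probe sets, Cd3g and Gzma, were high on control 2 alone, where 0.175% of all probe sets were, and the other 10 were high on no array alone. With at least 2 units, control 2 alone was high for 23 probe sets, against 6 for control 1 and between 1 and 4 for each deficient array. Cd3g and Gzma are 2 of those 23. Another 7 carry immunoglobulin symbols, chiefly Ighm, 3 carry T cell receptor segment symbols, 4 other genes, 3 several symbols and 4 no listed gene. The 4 other genes are Hspa1a, H2-T3, Il2ra and Sirpb1a. The 3 with several symbols carry H2-Q5 and H2-K1, H2-T3 and H2-T18, and Trgv4 and Trgv2. The probe set of H2-Q5 and H2-K1 read 10.33 on control 2 and 5.75 to 5.95 on the other arrays. The most distant was Ighm, the heavy chain of immunoglobulin M (1425385_a_at), with 11.12 on control 2 and 3.93 to 4.26 on the other arrays.

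Genes whose profile over the 5 arrays came nearest to that of Cd3g were a mixed set that included T cell genes. Likeness was the root mean square difference of log2 values after subtracting each gene's mean, over 18193 genes. The 5 nearest were H2-T3 (0.420), Trgv4 (0.432), Il2ra (0.460), Gzma (0.470) and Sirpb1a (0.486). Trgv4 is a variable segment of the gamma chain of the gamma-delta T cell receptor. Its probe set 1422189_x_at read 6.07 and 9.91 in controls and 5.94, 5.06 and 5.38 in deficient arrays. Another, 1450521_a_at, read 5.38 and 9.27 in controls and 5.32, 5.04 and 4.83 in deficient arrays. The dim 1427802_a_at lacked this pattern, with 3.40 and 3.51 in controls and 3.10, 3.39 and 3.22 in deficient arrays. Il2ra, the alpha chain of the IL-2 receptor (CD25), read 4.04 and 6.26 in controls and 3.84, 3.81 and 3.75 in deficient arrays. For Klrd1 the 5 nearest were Cmah (0.0525), Upp1 (0.0828), G0s2 (0.136), Gsn (0.151) and Nupr1 (0.184), each high on both controls. None of these 5 is in the T and NK cell gene lists used here.

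**Figure D3:**
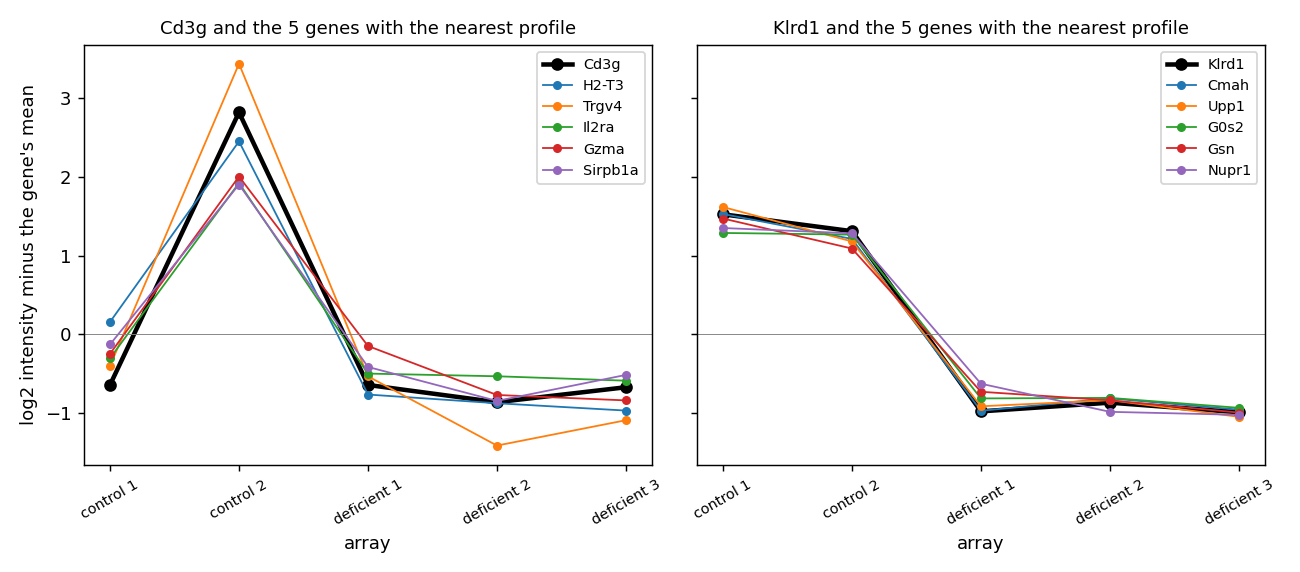
Log2 intensity minus each gene's own mean on the 5 arrays, for Cd3g (left) and Klrd1 (right) in black and the 5 genes with the nearest profile in colour. The Cd3g set peaks on control 2 alone, with Cd3g at 7.26 there and 3.79 on control 1, and the Klrd1 set is high on both controls.

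T cell receptor segments, chosen after their values were seen, gave both patterns. Of 17 probe sets with a single segment symbol, 4 were high on control 2 alone, 1 was lower in the deficient arrays and 16 did not pass (limma). Trbv1 (1452205_x_at), a variable segment of the beta chain, read 6.42 and 8.72 in controls and 4.55, 3.83 and 4.20 in deficient arrays (difference -3.38, adjusted p = 0.0994). The dim Trbv1 probe set 1433108_at differed by 0.04. Trgv1, another gamma segment, read 7.22 and 8.29 in controls and 5.15, 4.96 and 4.82 in deficient arrays. It fell by 2.78 (SE 0.31, limma adjusted p = 0.0369). The call held without control 1 (-3.32, adjusted p = 0.0181) and without control 2 (-2.25, adjusted p = 0.0487), and was lost without deficient 1, 2 or 3 (adjusted p between 0.114 and 0.123). It was also lost with 16 intensity units added before log2 (-2.30, adjusted p = 0.0742). Segments of near-identical sequence can share probes, and unrearranged loci can also be transcribed, so these probe sets do not count rearranged receptors.

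Control 2 also stood apart in other values. Xist, expressed from the inactive X chromosome of females, read 9.31 on control 2, 12.42 on deficient 2 and 3.44 to 3.73 on the other 3 arrays (1427262_at). Eif2s3y, a Y-linked gene, read 9.81 on both controls, 10.21 and 10.37 on deficient 1 and 3, and 3.50 on deficient 2 (1417210_at). Control 2 alone thus read high for both. The part of this in the values of Cd3g and Gzma was not tested.

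The other genes of these pathways were compared in 5 lists, with 1 probe set per gene (limma, adjusted over 18193 genes), where 1.41% of all genes were lower and 0.83% higher. Of 25 measured genes of the T cell receptor, its coreceptors and its signalling, 1 fell and 24 did not pass (list median -0.21, against -0.01 over all genes). The gene that fell was Icos, a costimulatory receptor, from 6.26 and 7.20 in controls to 4.81, 4.59 and 5.01 (difference -1.92, SE 0.29, adjusted p = 0.0360). It was called without control 1 (-2.40) and lost without any other array, and its dimmer probe sets differed by -0.54 and -0.74. Trat1, an adaptor bound to the receptor complex, differed by -1.08 (adjusted p = 0.0670, and -1.43 with a pass at 0.0431 without control 1), the CD45-associated protein gene Ptprcap by -0.73 (0.0685) and the adaptor gene Lcp2 (SLP-76) by -0.81 (0.0705). The coreceptor gene Cd4 read between 5.45 and 5.74 on all arrays and Cd8a differed by -0.23 (SE 0.15, adjusted p = 0.503) with overlapping groups.

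Of 20 NK receptor and adaptor genes, 2 fell and 18 did not pass (median -0.15). Those that fell were the signalling adaptor genes Fcer1g (-1.21, SE 0.15, adjusted p = 0.0224) and Tyrobp (DAP12; -1.32, SE 0.21, adjusted p = 0.0412), both of which myeloid cells also express. Fcer1g read 9.68 and 10.01 in controls and 8.76, 8.65 and 8.51 in deficient arrays, and Tyrobp 11.47 and 11.84 against 10.66, 10.30 and 10.06. Neither passed with any 1 array left out, with differences between -1.37 and -1.04 for Fcer1g and between -1.50 and -1.13 for Tyrobp. The lectin-like receptor gene Klrb1f differed by -0.91 (adjusted p = 0.244) and Cd244a (2B4) by 0.53 (adjusted p = 0.252).

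Of 19 other effector genes, 2 fell and 17 did not pass (median -0.07). Ccl5, a chemokine of activated T and NK cells, read 9.42 and 8.56 in controls and 6.86, 6.71 and 7.12 in deficient arrays (difference -2.09, SE 0.27, adjusted p = 0.0251). It was called without control 2 (-2.52) and lost without control 1 (-1.66) or without any 1 deficient array. Ccl4, a chemokine that myeloid cells make as well, fell by 0.97 (adjusted p = 0.0338) and did not pass with any 1 array left out. The killing genes themselves did not pass: Prf1 (perforin) read between 4.18 and 4.55 on all arrays. Gzmb (granzyme B) read 7.15 and 6.88 in controls and 8.96, 5.85 and 6.50 in deficient arrays, so deficient 1 alone stood high. Ccl3 differed by -0.97 (adjusted p = 0.156) and Gzmg by -0.38 (adjusted p = 0.153).

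Of the 10 measured partners of Il2rb in IL-2 and IL-15 signalling, 0 passed (limma), with 2 lower and 1 higher at an unadjusted p under 0.05. Cish, a feedback inhibitor of STAT5 signalling, read 10.87 and 9.76 in controls and 8.08, 7.97 and 8.71 in deficient arrays. Its difference of -2.06 missed the threshold (adjusted p = 0.0541) and passed without control 2 (-2.62, adjusted p = 0.0446). Socs1, a related inhibitor, differed by -0.35 (adjusted p = 0.198) and Stat5a by 0.39 (adjusted p = 0.203). Il2ra, high on control 2 alone, differed by -1.35 (adjusted p = 0.298), by -2.46 without control 1 with a pass and by -0.24 without control 2.

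Transcription factors of T and NK cells had 4 of 16 genes past the threshold, 3 lower and 1 higher (median -0.23). Id2, an inhibitor of E proteins that NK cells need, fell from 8.28 and 8.44 in controls to 6.46, 6.46 and 6.37 (difference -1.93, SE 0.11, adjusted p = 0.00346) and passed with any 1 array left out. Its dimmer probe sets differed by -0.74 and -0.22 and did not pass over all probe sets. Gata3, a factor of early T cells and of innate lymphoid cells, fell from 7.01 and 6.55 to 5.06, 5.37 and 5.64 (-1.43, SE 0.22, adjusted p = 0.0372). Id3 fell by 0.79 (SE 0.13, adjusted p = 0.0444). Gata3 and Id3 were lost with any 1 array left out. Zbtb16 (PLZF), a factor of NKT and innate lymphoid cells, rose from 6.39 and 6.04 to 8.14, 8.14 and 7.60 (1.74, SE 0.21, adjusted p = 0.0224), and passed without deficient 3 and with no other array left out. Its other probe sets differed by 1.66 and 0.40. Stem and progenitor cells also express several of these genes.

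**Figure D4:**
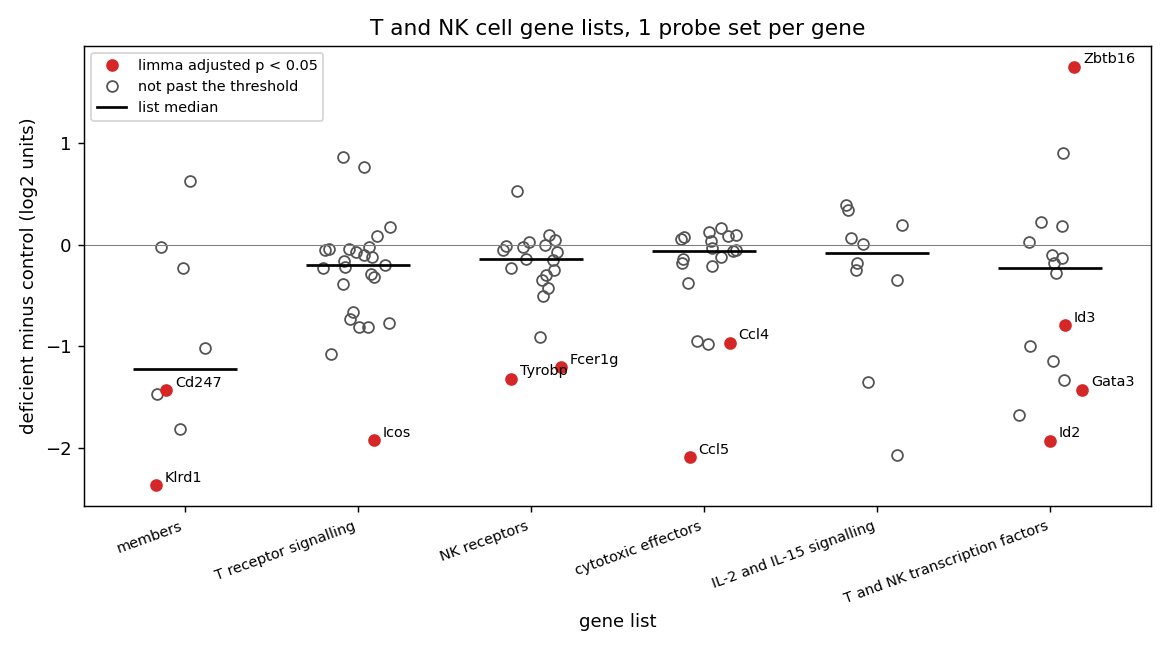
Deficient minus control on the log2 scale for each measured gene of the members and of the 5 pathway lists, 1 probe set per gene, with list medians as lines and genes past the threshold filled in red. The members' median is -1.23 with all arrays and -0.21 without control 2, where those of the 5 lists lie between -0.23 and -0.07 with all arrays and between -0.34 and -0.05 without control 2.

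Markers of other cell types also differed between the groups, granulocyte markers most, with a list median of -5.12. Over all genes 1.41% were lower and 0.83% higher (limma, 1 probe set per gene). The summed intensities below rest largely on the brightest probe sets of each list. Of 10 granulocyte markers 9 fell (Ngp -6.16, S100a9 -5.81 and Cd177 -4.93), and their summed linear intensity was 49658 and 60716 in controls and between 1372 and 2397 in deficient arrays. Of 11 B and plasma cell markers 3 fell (Igha -7.88, Jchain -7.48 and Igll1 -1.77), with a sum of 16013 and 29133 against 1226 to 1347. Macrophage and dendritic cell markers had 1 of 14 lower (Cd74, -2.71), with a sum of 7962 and 5319 against 2536 to 3296, erythroid markers 0 of 6 past the threshold (1 higher at an unadjusted p under 0.05) and megakaryocyte markers 1 of 7 higher (Itga2b, 1.19). The list called sort markers here holds genes of the KLS sort and of multipotent progenitors. Of its 6 measured genes the sort names only Kit. Among these genes Procr was lower (-1.62) and the other 5 did not pass. With 1 array left out, 0 sort markers passed in any of the 5 fits, Cd74 was lost without any array but deficient 3, Itga2b was lost without any array but deficient 1, and Igll1 was lost without any array but control 2, in whose absence 5 B and plasma cell markers were lower. The calls of Ngp, S100a9, Cd177, Igha and Jchain held in all 5 such fits. The part of these differences in the falls of Klrd1 and Cd247 was not tested.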

How the data were processed

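Total RNA of sorted mouse KLS cells was labelled with biotin and hybridised to Affymetrix arrays (labels' protocols). Per the submitters' processing notes the authors used RMA; the deposited table gives each probe set an intensity on every array. No source here names the software. Of 6 hybridisations the study excluded 1. Values from 6.96 to 31249 were taken as linear, and log2 was computed here. Pairwise correlations of arrays ran from 0.979 to 0.993. For arrays no depth applies: their number limits the precision.

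Groups came from the titles (2 control, 3 deficient). The comparison used R 4.3.3 and limma 3.58.1 (a linear model with eBayes moderation, two-sided tests, no covariate) over 45037 probe sets without 64 AFFX controls, and again over the brightest probe set of 18193 genes, with Benjamini-Hochberg adjustment. The fit was also run on simulated data drawn from its own variance model, with no signal placed on 1 array alone. That run cannot show how such signals affect the fit. Of the probe sets, 34945 had 1 symbol, 932 several and 9160 were not listed.

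The text names every member, up to 4 genes of each pathway list and 3 of each marker list by unadjusted p, the genes nearest in profile and the targeted genes. Alternatives covered normalization, filters, variance settings, thresholds, a replicate block and each array left out. T cell receptor segments, Ighm, Xist, Eif2s3y, the neighbours of Klrd1, Kit, Cd34, Ncr1, Cd4, Cd8a, Gzmb and Prf1 were chosen after values were seen. Members and lists were chosen with earlier results of these data known. Promoter sequences are RefSeq's (GRCm38.p6); 6 of the 8 measured members matched.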

Additional observations from a re-analysis of the deposited data

How the results depend on the processing

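With 1 array left out, 1 to 2 member probe sets were lower, and over all probe sets 21 to 73 were lower and 2 to 5 higher, against 147 and 74 with all 5 arrays (limma). The lower counts were 73 and 69 without control 1 and 2, and 21, 39 and 27 without deficient 1, 2 and 3. With 1 probe set per gene, 3 members were lower without control 1 and 1 without any other array, and 1 with the mean of each gene's probe sets. The medians of the lists with 1 array left out were added after seeing the data. Counts of member, all lower and all higher probe sets were 2, 260 and 141 with an intensity trend, and 2, 497 and 451 at adjusted p under 0.1. With 16 intensity units added before log2, all lower and higher were 75 and 40. With the replicate number as a block, 0 member probe sets passed (3 lower at an unadjusted p under 0.05), and 15 lower and 0 higher over all (2495 and 2923 unadjusted); Klrd1 was -2.34 with adjusted p = 0.108 and Trgv1 -2.70 with adjusted p = 0.174. No control carries the number 3, so deficient 3 added nothing to the differences fitted with the block. Trgv1 was likewise -2.70 with deficient 3 left out. The block terms also left less information on the spread between arrays. Deviations of same-numbered arrays from their group means correlated at -0.05 and -0.02. With 2 controls, whose deviations mirror each other, these values cannot show whether same-numbered arrays share a batch. The sign changed for 2 dim probe sets with differences near 0: Cd247 1452539_a_at was -0.0173 with the replicate block and ran from -0.0943 to 0.111 with 1 array left out, and Il2rb 1417546_at was 0.00508 with the block and ran from -0.0760 to 0.0296. Among 197 differences of member probe sets under the alternatives, 187 kept their direction and side of the threshold, 1 lost the call (Klrd1 with the block) and 3 gained it (Cd247 1426396_at with the trend and at adjusted p under 0.1, and Cd3g without control 1). A further quantile normalization, cyclic loess, median centring, a robust prior, array weights, 1.5-fold and leaving out dim, _x_at or _s_at probe sets each left 1 member probe set lower.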
